A study of Mus musculus with 12 samples.

Results

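Neutrophils carry antimicrobial and matrix-degrading proteins in granules, and 10 genes that encode proteins of the specific and gelatinase granules are described here: Ltf, Camp, Ngp, Lcn2, Mmp8, Chil3, Olfm4, Mmp9, Mmp25 and Lyz2. They were chosen by name, for the known location of their proteins, among the 29737 genes of the count table. Earlier results of these data were known when the choice was made. All 10 passed the filter on low counts that left 16761 genes for testing. The RNA came from bone marrow neutrophils of wild-type mice, female C57BL/6 animals by the study's methods. The cells were cultured for 24 h in RPMI 1640 with 10% fetal bovine serum and PBS, the vehicle, or a bile acid. All 4 groups shared this genotype and medium, and each held 3 samples.

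The TCA group received 200 μM taurocholic acid and the GCA group 200 μM glycocholic acid. The Tβ-MCA group received tauro-β-muricholic acid, at 10 μM by the labels and at the same dose as the other bile acids by the study's methods. TCA and GCA are the taurine and glycine conjugates of cholic acid, and Tβ-MCA is the taurine conjugate of β-muricholic acid. The labels name magnetic selection of Ly6G+ cells and the methods a density medium with an enrichment kit, so cells of other types can remain. The study calls its experiments biologically independent, but no source used here says how these samples map to mice, so p-values measure only the spread between these samples, which may be partly technical.

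Granules are filled in sequence while a neutrophil matures in the bone marrow. Azurophil granules form at the promyelocyte stage, specific granules at the myelocyte and metamyelocyte stage, and gelatinase granules later. Transcripts of specific granule proteins are most abundant in maturing cells and decline in mature ones. Transcription factors of the C/EBP family, C/EBPε above all for specific granules, and PU.1 are known to drive granule genes.

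The promoters of 9 of the 10 genes were found in RefSeq (GRCm38.p6). The motif TTNNGCAA, a form of the site that C/EBP factors bind, was searched on both strands in the 250 bases before the start site. It was present in 4 of these 9 promoters, those of Ltf, Ngp, Lcn2 and Mmp8, and in 9.56% of 32851 promoters of the same length. Another motif, GAGGAAG, a form of the site of PU.1 and other ETS factors, was found in 4 of the 9, those of Lcn2, Mmp8, Olfm4 and Mmp25, and in 10.6% of all promoters. In Lcn2 and Mmp8, which hold both, the matches do not overlap, and a match is a description of letters and not a binding site. The promoters of Ltf, Ngp and Mmp8 are shown because they hold the first motif outside annotated exons, here in capitals. All 3 are given on the plus strand of chromosome 9, and the motif reads on that strand in Ltf and on the other strand in Ngp and Mmp8. The match starts 75 bases before the start site in Ltf, 138 in Ngp and 19 in Mmp8. Ngp has a further match 11 bases before its start site, in the stretch left out here as exon.
Ltf, chr9:111019042-111019270: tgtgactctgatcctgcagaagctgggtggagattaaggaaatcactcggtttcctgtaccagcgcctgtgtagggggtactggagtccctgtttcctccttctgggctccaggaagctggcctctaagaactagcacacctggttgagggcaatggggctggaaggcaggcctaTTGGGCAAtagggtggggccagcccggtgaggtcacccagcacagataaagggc
Ngp, chr9:110419558-110419746: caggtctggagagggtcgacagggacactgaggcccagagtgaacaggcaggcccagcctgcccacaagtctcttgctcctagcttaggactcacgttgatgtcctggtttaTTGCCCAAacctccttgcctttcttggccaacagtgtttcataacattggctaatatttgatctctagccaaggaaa
Mmp8, chr9:7558179-7558428: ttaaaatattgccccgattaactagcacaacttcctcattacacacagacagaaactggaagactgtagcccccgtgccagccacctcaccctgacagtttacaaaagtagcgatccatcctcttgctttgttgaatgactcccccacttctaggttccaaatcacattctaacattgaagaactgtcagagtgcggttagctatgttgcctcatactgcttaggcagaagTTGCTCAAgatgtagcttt

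In the deposited table (GRCm38), Camp at chr9:109847379-109849617, Ngp at chr9:110419747-110423012 and Ltf at chr9:111019271-111042767 lie near each other, with 570 kb between Camp and Ngp and 596 kb between Ngp and Ltf. Mmp8 is at chr9:7558456-7568485, far from these. Lcn2 is at chr2:32384633-32388252 and Mmp9 at chr2:164940780-164955850. Chil3 is at chr3:106147554-106167564, Lyz2 at chr10:117277334-117282274, Olfm4 at chr14:80000302-80021930 and Mmp25 at chr17:23629458-23645269. All are protein-coding, and no gene of the table shares exon bases with any of them.

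Total counts were 32757389 to 41375925 per sample. The cells had high neutrophil transcripts such as S100a8 and S100a9, at 1270 to 1805 CPM and 17455 to 25502 CPM over the 12 samples, with CPM standing for counts divided by the TMM-scaled library size. Ly6g, by which the labels say the cells were selected, was at 7.54 to 21.4 CPM. T and NK cell markers summed to at most 3.80 CPM and erythroid markers to at most 3.38 CPM in a sample. Before any result, 1 library needs naming: Tβ-MCA replicate 5 lay between the other Tβ-MCA samples and PBS for many genes. The Tβ-MCA results are therefore given with and without it. Because the sample was singled out by these same values, larger differences and more calls without it partly follow from that choice. They are not separate support. Replicate 3 was the highest of its group for 10 of the 10 granule genes with PBS, 9 with TCA and 8 with GCA, but for only 2 with Tβ-MCA, where replicate 5 was the highest for the other 8.

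With PBS most of these genes were among the most abundant of the cells. By the mean deposited RPKM of the PBS samples, which accounts for transcript length, Ngp stood at 12944 ± 1869 (SD, n = 3) and ranked 2 of 29737 genes. Lyz2 followed at 3558 ± 152, Chil3 at 2770 ± 237, Mmp8 at 1650.0 ± 115 and Ltf at 1195 ± 284. Camp at 733 ± 165 and Lcn2 at 709 ± 34.1 overlapped in their PBS samples and were the only neighbours in this order that did. Mmp9 at 190.0 ± 17.9, Olfm4 at 96.0 ± 4.60 and Mmp25 at 33.9 ± 4.83 RPKM closed the order, with Mmp25 at rank 1711. Counts on the 10 genes made up 3.34% to 4.14% of all counts with PBS, 3.27% to 3.78% with TCA, 2.88% to 3.85% with GCA and 2.54% to 2.94% with Tβ-MCA.

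**Figure D1:**
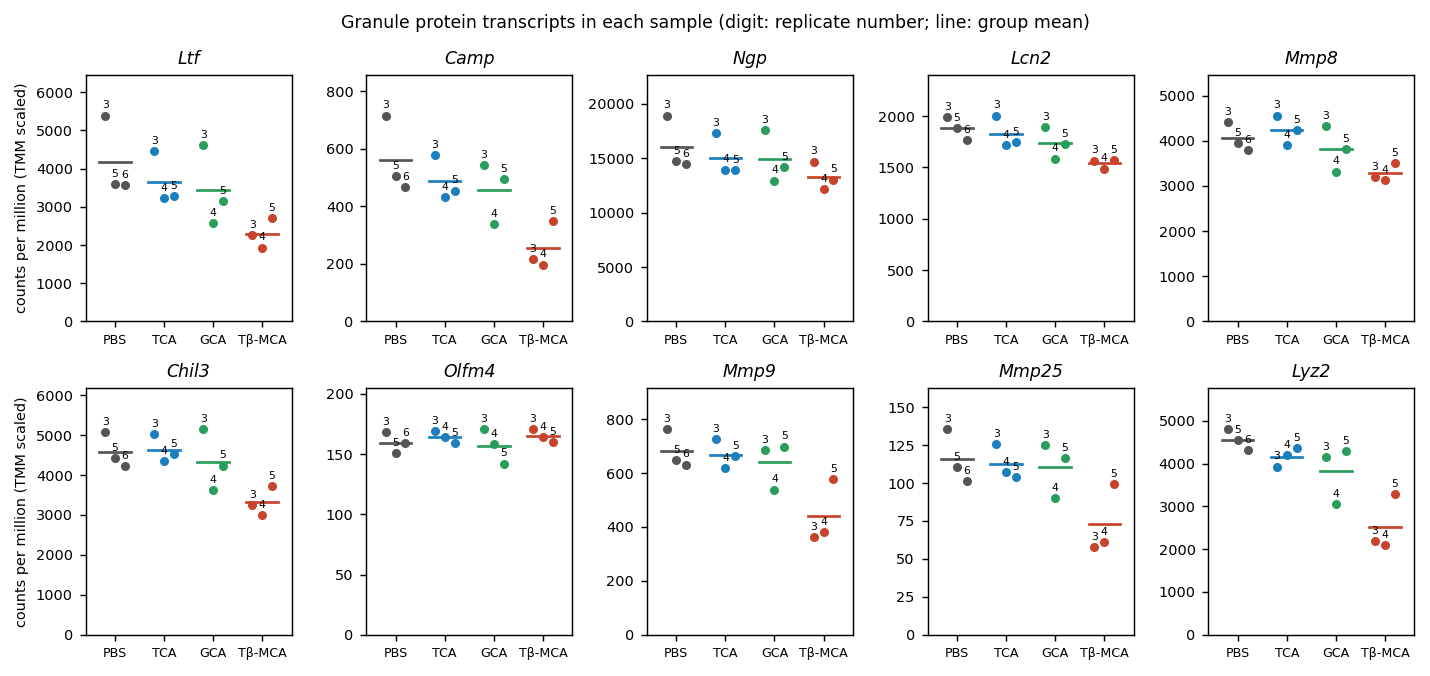
Each panel plots the CPM of 1 gene in the 12 samples by group, with the replicate number beside each point, a line at the group mean, and axes starting at 0. The Tβ-MCA samples lie below the PBS samples for every gene but Ngp, where 1 of them lies among the PBS samples, and Olfm4, whose groups overlap.

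Lower granule transcripts were measured with Tβ-MCA than with PBS. In the quasi-likelihood test of edgeR, with p adjusted by Benjamini-Hochberg over all genes tested, 5 of the 10 granule genes fell, which were Camp, Lcn2, Chil3, Mmp9 and Lyz2, and none rose. The background is 3.18% of all genes called lower and 7.62% called in either direction. The median log2 fold change of the 10 genes was -0.55, against 0.0041 over all genes tested. Without Tβ-MCA replicate 5, 7 of the 10 genes fell, with Mmp8 and Mmp25 added, where 9.44% of all genes were called lower. At the study's thresholds of an unadjusted p of 0.05 and a 2-fold change, Camp alone passed, beside 1.86% of all genes lower, and Camp and Lyz2 passed without replicate 5, beside 3.95%.

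The count of 5 rested on the samples in the fit. It was 0 in each fit without a PBS sample, without Tβ-MCA replicate 3 or without Tβ-MCA replicate 4, and with only the PBS and Tβ-MCA samples. Leaving out samples of the other groups gave 3, 2 and 1 without TCA replicates 3, 4 and 5, and 1 without GCA replicate 5. The share of all genes called in these fits is not given here. Whether calls were lost over all genes alike therefore cannot be read from these counts. With the replicate number as a term in the fit the count stayed 5, but the genes changed. Camp (adjusted p = 0.0759) and Mmp9 (0.141) were then not called, while Ngp (0.0192) and Mmp8 (0.0234) were. The levels themselves did not overlap for 8 genes, since every Tβ-MCA sample was below every PBS sample for all but Ngp and Olfm4, as for 12.8% of all genes tested.

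Among the specific granule genes, Camp was the lowest relative to PBS. It encodes the cathelicidin precursor of the antimicrobial peptide CRAMP. Camp was at 716, 505 and 468 CPM with PBS and at 217, 198 and 350 CPM with Tβ-MCA. The groups did not overlap, and replicate 5 stood highest with Tβ-MCA. Camp fell by 1.14 on the log2 scale (standard error 0.28, adjusted p = 0.0417), which is 54.7% lower, and by 1.44 (standard error 0.25, adjusted p = 0.00542) without replicate 5.

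Ltf encodes lactoferrin, which binds iron and deprives microbes of it. Ltf was at 5385, 3597 and 3562 CPM with PBS and at 2264, 1934 and 2697 CPM with Tβ-MCA. The groups did not overlap, but PBS replicate 3 stood far above the other PBS samples. The log2 fold change of -0.86 (standard error 0.26, adjusted p = 0.0743) was not called, and neither was that of -0.99 (adjusted p = 0.0536) without replicate 5.

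Chil3 encodes Ym1, a chitinase-like protein that neutrophils and macrophages make. It was at 5077, 4426 and 4231 CPM with PBS and at 3251, 2997 and 3728 CPM with Tβ-MCA. All Tβ-MCA samples were below all PBS samples. The gene fell by 0.46 on the log2 scale (standard error 0.12, adjusted p = 0.0350), and by 0.55 (adjusted p = 0.00886) without replicate 5. Its close relative Chil4 was at 7.05 to 16.9 CPM over the 12 samples, and how reads that match both genes were counted is not given in the sources used here.

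Lcn2 encodes lipocalin 2, which captures the siderophores that bacteria use to take up iron. Lcn2 was at 1992, 1884 and 1770 CPM with PBS and at 1567, 1490 and 1570 CPM with Tβ-MCA. The Tβ-MCA samples were close together, replicate 5 included. The gene fell by 0.29 on the log2 scale (standard error 0.08, adjusted p = 0.0404), and by 0.30 (adjusted p = 0.0277) without replicate 5. Mmp8, the neutrophil collagenase, was at 4419, 3946 and 3791 CPM with PBS and at 3201, 3133 and 3498 CPM with Tβ-MCA. Its groups did not overlap either. The log2 fold change of -0.31 (standard error 0.09) had an adjusted p of 0.0580, and without replicate 5 it was -0.36 with an adjusted p of 0.0250.

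Ngp and Olfm4 were not called in the fit used for the results. Ngp, whose product is a cathelicidin-related protein of specific granules, was at 18901, 14755 and 14422 CPM with PBS and at 14680, 12184 and 13039 CPM with Tβ-MCA. Tβ-MCA replicate 3 lay among the PBS samples, and the log2 fold change reached -0.27 (standard error 0.13, adjusted p = 0.233), or -0.26 (adjusted p = 0.316) without replicate 5. It ranged from -0.35 to -0.13 as each sample was left out, with the latter value without PBS replicate 3. Between samples of the same number, Ngp was lower with Tβ-MCA than with PBS by 0.36 for number 3 and 0.18 for number 5 (log2). With the replicate number as a term in edgeR's fit, Ngp was called (adjusted p = 0.0192). Olfm4, a glycoprotein found in a subset of neutrophils, was at 168, 151 and 159 CPM with PBS and at 171, 164 and 160 CPM with Tβ-MCA. The groups overlapped, and the 95% interval of its log2 fold change of 0.05 ran from -0.10 to 0.20 (adjusted p = 0.731), and without replicate 5 the estimate was 0.07 (adjusted p = 0.605).

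Of the metalloproteinases of the gelatinase granule and the cell surface, Mmp9 fell with Tβ-MCA and Mmp25 was not called over all samples. Mmp9 encodes gelatinase B, which cleaves denatured collagen and basement membrane collagen. It was at 764, 648 and 632 CPM with PBS and at 361, 381 and 578 CPM with Tβ-MCA. Tβ-MCA replicates 3 and 4 were at 53.0% and 56.0% of the PBS mean, and replicate 5 at 84.9%. Mmp9 fell by 0.63 on the log2 scale (standard error 0.17, adjusted p = 0.0481), and by 0.88 (standard error 0.12, adjusted p = 0.000227) without replicate 5.

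Mmp25 encodes leukolysin, a metalloproteinase that a lipid anchor holds to the membrane. It was at 136, 110 and 101 CPM with PBS and at 57.9, 61.1 and 99.2 CPM with Tβ-MCA. Replicate 5 was just below the lowest PBS sample. The log2 fold change of -0.67 (standard error 0.21) had an adjusted p of 0.0862, and without replicate 5 it was -0.96 (standard error 0.15) with an adjusted p of 0.00131. The distance between replicate 5 and replicates 3 and 4 was thus wide for both metalloproteinases, while for Lcn2 the Tβ-MCA samples lay within 79.2% to 83.4% of the PBS mean.

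Lyz2 encodes M lysozyme, which cleaves bacterial cell walls and is stored in all granule types as well as made by monocytes and macrophages. It was at 4811, 4547 and 4322 CPM with PBS and at 2185, 2103 and 3294 CPM with Tβ-MCA. The groups were well apart, with replicates 3, 4 and 5 at 47.9%, 46.1% and 72.2% of the PBS mean. Lyz2 fell by 0.85 on the log2 scale (standard error 0.17, adjusted p = 0.0219), the lowest adjusted p among the 10 genes, and by 1.09 (standard error 0.12, adjusted p = 7.27e-05) without replicate 5. Its close copy Lyz1 was at 6.78 to 22.4 CPM and fell as well, by 1.02 (adjusted p = 0.0307) or by 1.37 (adjusted p = 0.00024) without replicate 5, and reads that match both copies make the split between them uncertain.

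**Figure D2:**
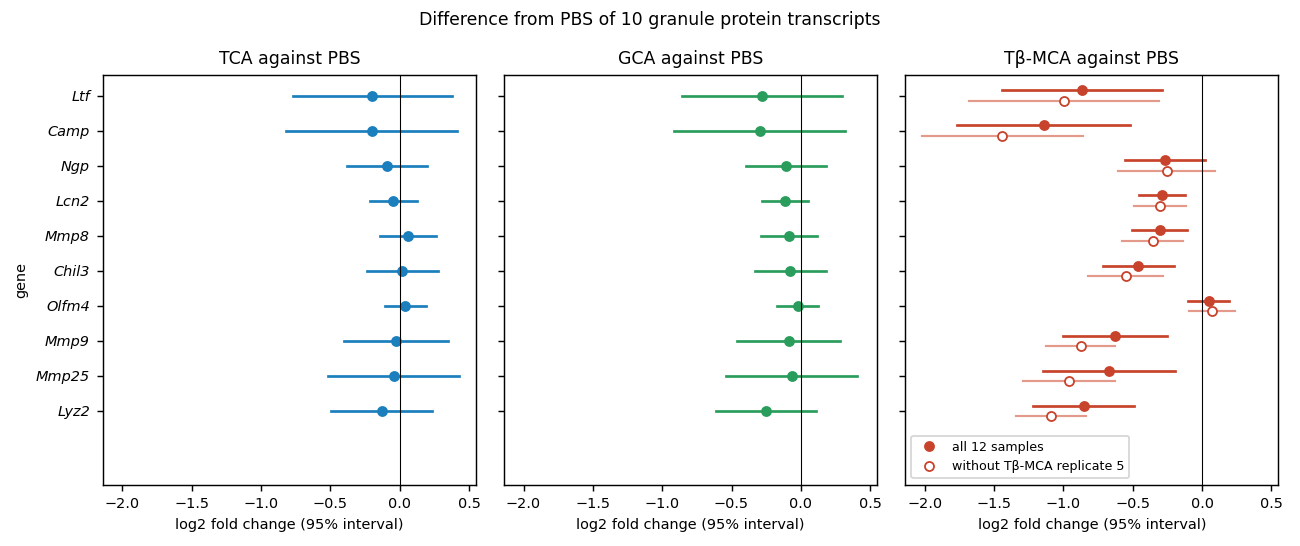
Points are the log2 fold changes of the 10 genes against PBS from edgeR and bars their 95% intervals, with open points for the fit without Tβ-MCA replicate 5. In the fit of all 12 samples every interval includes 0 with TCA and GCA, while with Tβ-MCA those of 8 genes lie below 0 and those of Ngp and Olfm4 include it.

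Markers of some other cell types moved with these genes. The sums for basophils and mast cells and for erythroid cells overlapped between PBS and Tβ-MCA. Those for B cells (9.27 to 12.5 CPM with PBS, 7.26 to 9.05 CPM with Tβ-MCA) did not. Neither did the small sums for T and NK cells (2.41 to 3.80 and 1.53 to 1.82 CPM). The 13 monocyte and macrophage markers summed to 1218 to 1302 CPM with PBS and to 408, 531 and 1034 CPM in Tβ-MCA replicates 3, 4 and 5. All 13 had a negative log2 fold change. Of these, 1 was called over all samples, the monocyte antigen gene Ly6c2 (log2 fold change -0.94, adjusted p = 0.0353, or -1.29 and 4.32e-05 without replicate 5), and 9 were called without replicate 5. The shares of all genes called lower were 3.18% and 9.44% in these 2 fits. Ccr2, the receptor that defines classical monocytes, was at 51.2, 37.3 and 37.9 CPM with PBS and at 2.03, 2.70 and 29.2 CPM with Tβ-MCA. Replicate 5 thus stood nearest to PBS for these markers, as it did for every granule gene but Ngp.

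Eosinophil markers summed to 138 to 241 CPM with PBS and to 54.1 to 124 CPM with Tβ-MCA. Markers of progenitors and dividing cells summed to 2490 to 3036 CPM with PBS and to 2612 to 2960 CPM with Tβ-MCA, so their ranges overlapped. The 8 neutrophil markers summed to 29563 to 34607.5 CPM with PBS and to 25625 to 28292 CPM with Tβ-MCA. Among these markers, 5 had a negative log2 fold change with Tβ-MCA. Of these 2 were called, Ly6g lower by 0.99 (adjusted p = 0.0208) and S100a8 lower by 0.30 (adjusted p = 0.0402). Without replicate 5, 4 of the 8 were called lower and 1 higher. Of all genes, 3.18% were called lower over all samples and 9.44% without replicate 5. Ly6g and S100a8 then fell by 1.27 (adjusted p = 8.78e-05) and 0.34 (adjusted p = 0.0164). Monocytes and macrophages also express Lyz2 and Chil3, and the part of these cells in the results was not tested. Fewer cells of a type and less RNA per cell cannot be told apart in these samples.

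**Figure D3:**
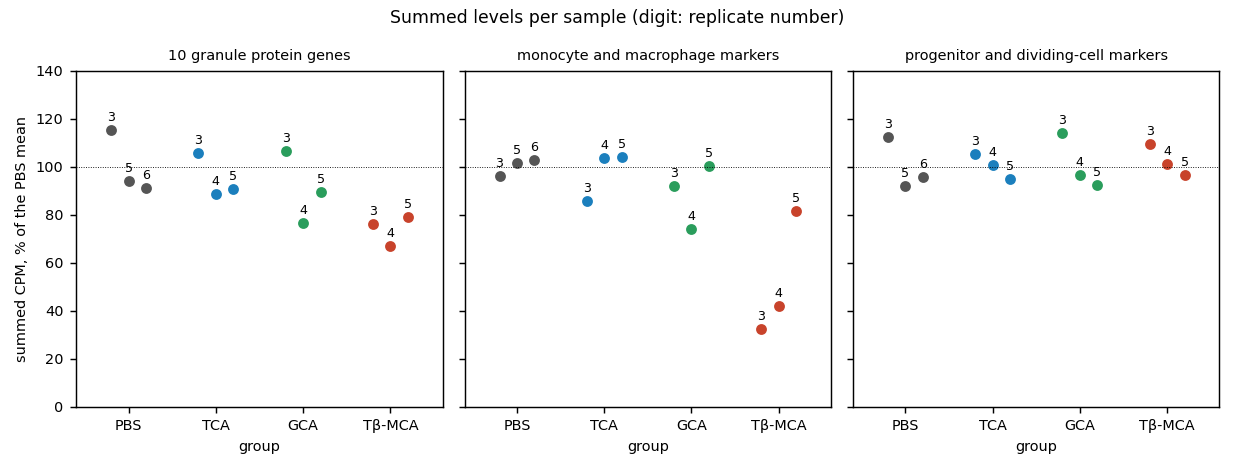
Points are the summed CPM of a gene list in each sample as a percent of the mean of the PBS samples, with the replicate number beside each point. The sum of the 10 granule genes lies at 67.0% to 78.8% in the Tβ-MCA samples and at 76.7% to 106% in the GCA samples, while the monocyte and macrophage markers lie at 32.2%, 41.9% and 81.5% in Tβ-MCA replicates 3, 4 and 5.

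No granule gene was called with TCA or GCA. In edgeR's test 0 of the 10 genes and 0 of all genes passed against PBS with either bile acid (0.0% of genes in both), and at an unadjusted p under 0.05 there were 546 genes with TCA (3.26%) and 591 with GCA (3.53%), none of them a granule gene. DESeq2 called 1 gene with TCA and 0 with GCA, and no granule gene. These comparisons share the PBS samples with that of Tβ-MCA. The median log2 fold change of the 10 genes was -0.04 with TCA and -0.10 with GCA.

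With TCA, Camp was at 579, 434 and 455 CPM, within the range of the PBS samples but for replicates 4 and 5 just below it, and its log2 fold change of -0.20 had a 95% interval from -0.82 to 0.41. Ltf was at 4455, 3218 and 3278 CPM. Mmp9 at 725, 618 and 663 CPM and Mmp25 at 126, 107 and 104 CPM also overlapped PBS. For Lyz2, which was at 3934, 4200 and 4362 CPM, the log2 fold change was -0.13 with an interval from -0.49 to 0.23. The TCA samples overlapped the PBS samples for all 10 genes, where 4.76% of all genes had every TCA sample below every PBS sample.

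With GCA, replicate 4 was the lowest sample for all of these genes but Olfm4. Lyz2 was at 4144, 3051 and 4287 CPM and was the only granule gene with every GCA sample below every PBS sample, as for 4.83% of all genes tested. Its log2 fold change was -0.25 (95% interval -0.61 to 0.11). Leaving out Tβ-MCA replicate 5, which shares the estimate of spread, kept this value with an interval from -0.47 to -0.033. In that edgeR fit the unadjusted p was 0.0269 and the adjusted p 0.998, so the gene was not called. Camp was at 543, 339 and 494 CPM and Ltf at 4610, 2565 and 3150 CPM, with log2 fold changes of -0.30 (95% interval -0.91 to 0.32) and -0.28 (95% interval -0.85 to 0.29). These moved with single samples, from -0.43 without GCA replicate 3 to -0.084 without PBS replicate 3 for Camp, and from -0.55 to -0.056 without the same samples for Ltf. Monocyte and macrophage markers in GCA replicates 3, 4 and 5 were at 92.0%, 73.9% and 100.3% of the PBS mean, so replicate 4 was lowest there too.

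TCA and GCA differ in the amino acid joined to cholic acid, taurine in the former and glycine in the latter, and were given at the same dose and time. By the labels, this pair was the only matched one among the 5 comparisons made. No granule gene differed between them in edgeR's test, where 412 genes (2.46%) had an unadjusted p under 0.05, none of them a granule gene, and 0 (0.0%) an adjusted p under 0.05, and DESeq2 also called 0. The log2 differences of GCA from TCA ran from -0.15 for Mmp8 to -0.01 for Ngp, and the groups overlapped for every granule gene, where 4.19% of all genes had every GCA sample below every TCA sample. The 95% intervals were -0.35 to 0.05 for Mmp8, -0.24 to 0.10 for Lcn2, -0.21 to 0.08 for Olfm4 and -0.48 to 0.24 for Lyz2. They were wider for Camp, from -0.71 to 0.52, and for Ltf, from -0.66 to 0.49, so differences inside these intervals were not excluded.

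Tβ-MCA and TCA share the taurine and differ in the bile acid, but the labels give them different doses, so the test says whether the cultures differ and cannot separate dose from structure. In edgeR's test Lyz2, Chil3 and Mmp8 were lower with Tβ-MCA, which is 3 of the 10 genes, beside 1.29% of all genes called lower and 3.51% in either direction. Their log2 differences were -0.72 (adjusted p = 0.0429), -0.48 (adjusted p = 0.0462) and -0.37 (adjusted p = 0.0464), and without Tβ-MCA replicate 5 they were -0.96 (adjusted p = 0.000169), -0.57 (adjusted p = 0.00829) and -0.42 (adjusted p = 0.0120). Without that sample the count was 6, with Camp, Mmp9 and Mmp25 added, beside 8.12% of all genes called lower. It was 0 without Tβ-MCA replicate 3 or 4, without any TCA sample, without PBS replicate 5 or 6, without GCA replicate 5, and with only the Tβ-MCA and TCA samples. For the fits with a count of 0 the share of all genes called is not given here. Every Tβ-MCA sample was below every TCA sample for 8 genes, all but Ngp and Olfm4, as for 12.1% of all genes. For Mmp8 the TCA samples at 4555, 3899 and 4231 CPM lay around the PBS values.

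Other genes of the same granules were read from lists written for this work. Of 16 other specific granule genes, all tested, 2 fell and 1 rose with Tβ-MCA against PBS, beside 3.18% of all genes called lower. Hp, the haptoglobin gene, was at 1481, 1469 and 1387 CPM with PBS and at 957, 1024 and 1218 CPM with Tβ-MCA, and fell by 0.44 on the log2 scale (adjusted p = 0.0208). Slpi, a secreted inhibitor of leukocyte proteases, fell by 0.79 (adjusted p = 0.0438). The gene that rose was Chil1, a chitinase-like relative of Chil3, at 503, 584 and 537 CPM with PBS and 738, 749 and 588 CPM with Tβ-MCA (log2 fold change 0.35, adjusted p = 0.0321). Chil1 and Chil3 thus lay on opposite sides of their PBS levels in all 3 Tβ-MCA samples. The median over this list was -0.16, against -0.31 over the 7 specific granule genes described above. Without replicate 5, 5 fell and 1 rose, with Hp at -0.55 (adjusted p = 0.000311), Slpi at -1.05 (adjusted p = 0.0014) and Chil1 at 0.46 (adjusted p = 0.000963). Of all genes, 9.44% were then called lower.

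Of 13 other gelatinase granule and secretory vesicle genes, 10 were tested and 2 fell with Tβ-MCA, while none rose. They were Fpr2, a receptor for formylated peptides (log2 fold change -0.73, adjusted p = 0.0235), and Qsox1, a sulfhydryl oxidase (-0.62, adjusted p = 0.0472). Without replicate 5, 6 of 11 tested genes fell, Fpr2 by 0.93 (adjusted p = 0.000258) and Qsox1 by 0.89 (adjusted p = 7.34e-05) among them. Of 12 tested genes on the azurophil granule list, 2 fell. Ctsc, the protease that activates the granule serine proteases, fell by 0.87 (adjusted p = 0.0307). Serpinb1a, an inhibitor of those proteases, fell by 0.89 (adjusted p = 0.0353). Without replicate 5, 6 genes of this list fell and 3 rose, with Ctsc at -1.21 (adjusted p = 4.6e-05) and Serpinb1a at -1.18 (adjusted p = 0.000222). None of these lists had a called gene with TCA or GCA against PBS. With Tβ-MCA against PBS, 3.18% of all genes were called lower over all samples and 9.44% without replicate 5.

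The transcription factors of granule genes were not called over all samples. All 10 factors on the list had a negative log2 fold change with Tβ-MCA, with a median of -0.21. Cebpe, which encodes C/EBPε, was at 349, 252 and 211 CPM with PBS and at 269, 207 and 237 CPM with Tβ-MCA. Its groups overlapped, and the log2 fold change was -0.19 (adjusted p = 0.625), or -0.19 (adjusted p = 0.676) without replicate 5. Without replicate 5, where 9.44% of all genes were called lower, 6 of the 10 factors fell. The lowest p among them was that of Cebpa, which acts earlier in the lineage, with a log2 fold change of -0.96 (adjusted p = 4.32e-05), against -0.62 (adjusted p = 0.0813) over all samples. Cebpa was at 34.9, 34.5 and 61.9 CPM in the Tβ-MCA samples against 69.7, 68.4 and 64.0 CPM with PBS. The gene for PU.1, Spi1, had a log2 fold change of -0.17 (adjusted p = 0.152) over all samples and -0.23 (adjusted p = 0.0418) without replicate 5.

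Of the genes that act on the released proteins, 5 of 7 were tested, and 1 fell with Tβ-MCA over all samples, beside 3.18% of all genes. Reck, a membrane-anchored inhibitor of metalloproteinases including MMP9, was at 8.0, 5.88 and 6.96 CPM with PBS and at 3.29, 3.86 and 5.19 CPM with Tβ-MCA (log2 fold change -0.75, adjusted p = 0.0279, or -0.96 and 0.00209 without replicate 5). Lrp1, a receptor that takes up lactoferrin and MMP9, was at 265, 280 and 287 CPM with PBS and at 54.2, 79.4 and 237 CPM with Tβ-MCA. Its log2 fold change was -1.17 (adjusted p = 0.174) over all samples and -2.05 (adjusted p = 0.000184) without replicate 5. Timp2, a soluble inhibitor of metalloproteinases, had a log2 fold change of 0.01 (adjusted p = 0.963), Timp3 one of -0.24 (adjusted p = 0.745), and P2rx7, a receptor through which the human cathelicidin peptide can act, one of -0.30 (adjusted p = 0.335). Without replicate 5 these were -0.05 (adjusted p = 0.733), -0.52 (adjusted p = 0.42) and -0.51 (adjusted p = 0.0539), none of them called. Timp1 and Slc22a17, the lipocalin 2 receptor gene, had too few counts for testing. Trf, the transferrin gene related to Ltf, was at 18.6 to 23.9 CPM over all samples with a log2 fold change of -0.15 (adjusted p = 0.368), and Chil4 had one of -0.73 (adjusted p = 0.0601). Without replicate 5 they were -0.18 (adjusted p = 0.301) and -0.81 (adjusted p = 0.04998), of which Chil4 was called.

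Across the 12 samples the 10 genes varied together to different degrees. These correlations are descriptions over samples that share the treatment groups. The highest Pearson correlation of log2 CPM between members was 0.99, between Mmp9 and Mmp25, followed by 0.98 between Mmp8 and Chil3. Ngp correlated with Ltf at 0.89 but with Lyz2 at only 0.53. Olfm4 stood apart, with correlations from -0.29 with Lyz2 to 0.42 with Ngp.

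Among 8065 other genes with a mean of at least 10 CPM, those most like the mean profile of the 7 specific granule genes were Baz1a, Inhba, Gm1966, Fbxo28 and Ywhah, with correlations from 0.98 to 0.99 over the 12 samples. Inhba, the gene of an activin subunit, was at 135, 73.5 and 78.2 CPM with PBS and at 43.1, 32.5 and 61.9 CPM with Tβ-MCA. It shared with Ltf the high PBS replicate 3. The gene most like Mmp9 was Dfna5, which encodes a gasdermin, the one most like Mmp25 was Kdm6b, a histone demethylase gene, and the one most like Lyz2 was Ptprj, a receptor phosphatase gene, each at 0.99.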

How the data were processed

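Bone marrow neutrophil mRNA was sequenced from stranded libraries. Per the labels, the authors trimmed reads (Trimmomatic 0.36), aligned them to GRCm38 (STAR 2.5.3a) and deposited raw counts per gene (featureCounts, Subread 1.5.1) and RPKM values. Strand and pair settings are not given in the sources used here. The deposited RPKM matched the counts per merged exon length within a relative difference of 1.3e-06. Columns named for GA were taken as GCA.

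Counts were compared with edgeR 4.0.16 (R 4.3.3, limma 3.58.1; robust quasi-likelihood, TMM, filterByExpr by group, all 12 samples in 1 fit), with Benjamini-Hochberg adjustment and a threshold of 0.05. CPM are TMM-scaled; log2 CPM used a prior count of 2. DESeq2 1.42.0, other scalings, filters and sample sets were alternatives, and the test was checked on simulated data. Depth was 32757389 to 41375925 counts per sample, and a total under 3 counts was taken as not detectable, which covers counting error only.

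The 10 genes and the lists were chosen with earlier results of these data known. Named beside them are called list genes (at most 4 per list and comparison), Cebpe, paralogs, inhibitors and receptors, and the most similar genes. Ccr2, S100a9, Cebpa and Spi1 were named after their values were seen.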

Additional observations from a re-analysis of the deposited data

How the results depend on the processing

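With Tβ-MCA against PBS, no member changed sign in any of the 19 alternative fits. The 5 calls became 8 in DESeq2, 9 without a filter on low counts, 0 with only the 2 groups compared, 1 at the study's thresholds and 0 to 7 when each sample was left out in turn, and stayed 5 with RLE size factors, total library size or at least 10 counts in every sample. The 3 calls against TCA became 6 in DESeq2, 8 without a filter, 0 with only the 2 groups compared, 0 at the study's thresholds and 0 to 6 over the samples left out. The other comparisons had 0 calls throughout. For most of these alternative fits the share of all genes called is not given here, so the counts cannot be compared with it. Without a filter the adjusted p of Ltf was 4.61e-31, against 0.0189 in DESeq2; the cause was not tested.

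The replicate block, with the replicate number as a term, gave 5 calls for Tβ-MCA against PBS, with Ngp (adjusted p = 0.0192) and Mmp8 (0.0234) in place of Camp (0.0759) and Mmp9 (0.141), and 5 against TCA. With group means removed, same-numbered samples correlated at a mean r of 0.19 over 15 pairs (0.060 to 0.33), 12 of them over 0.1. The mean was -0.072 over 39 pairs with different numbers, and 10 of 11 samples correlated best with their own number. Same-numbered samples were thus more alike. Not every such pair was over 0.1 and no source used here gives a pairing, so the fit used for the results left the number out. The calls that differ between these fits rest on that choice. PBS replicate 6 has no partner and adds nothing to the fit with the block. Under the block the TCA value of Mmp9 turned to 0.0096.

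Values near 0 changed sign when a sample was left out. On the log2 scale their ranges were, for TCA against PBS, Ltf -0.36 to 0.026, Camp -0.34 to 0.0068, Ngp -0.20 to 0.042, Chil3 -0.046 to 0.097, Mmp9 -0.089 to 0.062 and Mmp25 -0.13 to 0.085. They were, for GCA against PBS, Ngp -0.24 to 0.031, Mmp8 -0.18 to 0.0078, Chil3 -0.22 to 0.036, Olfm4 -0.087 to 0.044, Mmp9 -0.15 to 0.023 and Mmp25 -0.16 to 0.064. They were, for GCA against TCA, Ltf -0.35 to 0.088, Camp -0.23 to 0.083, Ngp -0.15 to 0.098, Lcn2 -0.14 to 0.0040, Chil3 -0.24 to 0.018, Olfm4 -0.13 to 0.0028, Mmp9 -0.13 to 0.050, Mmp25 -0.12 to 0.10 and Lyz2 -0.21 to 0.017. They were, for Tβ-MCA against TCA, Olfm4 -0.020 to 0.029. None of these was called. Counts of the 10 genes are high, so spread between samples, not depth, sets the intervals.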
